A study of Mus musculus with 8 samples.

Results

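miR-31 is made from a single hairpin with 2 mature arms, mmu-miR-31-5p and mmu-miR-31-3p (below miR-31-5p and miR-31-3p). Both were taken by name from the 1978 mouse mature miRNAs of the deposited table, and their reads were followed in 3A cells and in extracellular vesicles (EVs) released by them. A miRNA hairpin is cut into a short duplex, from which a guide arm is loaded into Argonaute and pairs through its seed with target transcripts, while the passenger arm is usually degraded. miR-31 is known as a regulator of cell growth and differentiation in epithelial tissues, is often deregulated in tumours, and its gene lies in the chromosomal region of the tumour suppressors Cdkn2a and Cdkn2b. miR-31-3p was used in the study as a miRNA that carries the CELL motif, a short sequence tied to intracellular retention, and lacks the hEXO motif, which the RNA-binding protein SYNCRIP recognizes for EV loading.

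The study sequenced 8 small RNA libraries, 2 biological replicates for each of 4 conditions. Cell shCTR and cell shPCBP2 were cultures of 3A, an established mouse hepatocyte line that does not form tumours, with stable expression of a control shRNA or of an shRNA against PCBP2, an RNA-binding protein. EV shCTR and EV shPCBP2 were the vesicles purified by ultracentrifugation from medium that such cells had conditioned for 72 h in serum depleted of EVs. The shPCBP2 line was made for the study with a retroviral shRNA vector and puromycin selection, while the shCTR line, with a scrambled shRNA, had been made earlier, so that the silencing and differences between separately derived lines cannot be told apart. Every sample received cel-miR-39, a worm miRNA, as a spike-in, and a level is given below as counts per 1000000 spike-in counts, called units.

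Mouse miRNAs received between 8745848 and 12732173 counts in the cell libraries and between 503070 and 687592 in the EV libraries, while the spike-in took 57.4% to 66.9% of the counts in cells and 97.6% to 98.4% in EVs. miR-122-5p, the defining miRNA of hepatocytes, was scarce, with 0.00357% to 0.00415% of the mouse counts in cells and 0.144% to 0.372% in EVs. The erythroid markers miR-451a and miR-486a-5p together held 5.10% to 6.11% of the mouse counts in EVs and at most 0.00152% in cells, and miR-451a was at 0 in every cell library. The leukocyte list of 3 markers held at most 0.0000475% in cells and 0.713% to 0.892% in EVs, the mesenchymal list of 2 at most 0.00116% and 0.151% to 0.390%, and the endothelial marker at most 0.0190% and 0.289% to 0.561%. The EV preparations thus held miRNAs, such as miR-451a and the leukocyte markers, that these cells had almost no reads of. This was not so for the endothelial marker miR-126a-3p, with 1524 to 2218 counts in cells and 1748 to 2827 in EVs.

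The hairpin gene Mir31 lies at chr4:88910557-88910662 of GRCm38, on the minus strand. In the GENCODE annotation it falls within an exon of the long non-coding RNA gene AL805899.1, which is transcribed from the same strand. The nearest protein-coding gene is Ifne, which encodes an epithelial interferon, at a distance of 30.4 kb, and Cdkn2a lies 364 kb away on the other side. The hairpin is shown because it holds both arms, which are in capitals, the 5p arm first:
Mir31 hairpin: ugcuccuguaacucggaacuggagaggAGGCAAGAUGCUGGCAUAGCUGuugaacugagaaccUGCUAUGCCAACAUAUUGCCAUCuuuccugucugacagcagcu
Of the 22 bases of miR-31-5p, 17 were predicted to pair with bases of miR-31-3p in the fold of least free energy, and 14 bases separate the arms.

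The mature sequences from RefSeq are shown with the seed (bases 2 to 8) in capitals, since the seeds of the arms differ:
miR-31-5p: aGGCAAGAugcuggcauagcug
miR-31-3p: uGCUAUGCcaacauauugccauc
miR-31-5p spans chr4:88910614-88910635 and miR-31-3p chr4:88910577-88910599, both on the minus strand. No other miRNA among the 1679 mature mouse miRNAs of the RefSeq table, which all had a row in the count table, shares either seed. The core CELL motif, written AUUA or AUUG, was searched on the mature strand and found in miR-31-3p and not in miR-31-5p, as AUUG from base 15 (motif in capitals):
miR-31-3p: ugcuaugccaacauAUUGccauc
AUUG occurs in 114 mature mouse miRNAs of this table (6.79%) and either form in 149 (8.87%). GGCU, a stretch within the hEXO motif, occurs in 223 (13.3%) and in neither arm of miR-31. The study writes hEXO as a longer motif with alternative bases at each position, which was not searched here. The absence of GGCU therefore does not show that an arm lacks hEXO. A match is a description of the letters and not of a binding site.

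miR-31-5p was among the most abundant miRNAs of both compartments. It ranked as the 3rd mouse miRNA by counts in all 4 cell libraries and as the 2nd in all 4 EV libraries. Its counts in cell shCTR were 886411 and 745224, against 509092 and 736135 in cell shPCBP2. In EVs its counts were 63406 and 58092 (shCTR) against 39491 and 33483 (shPCBP2). miR-31-3p, in contrast, had 835 and 450 counts in cell shCTR and 261 and 328 in cell shPCBP2, and no read in any of the 4 EV libraries. The cell reads of this hairpin were thus almost all from the 5p arm, with 1062 to 2244 reads of miR-31-5p for each read of miR-31-3p.

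**Figure D1:**
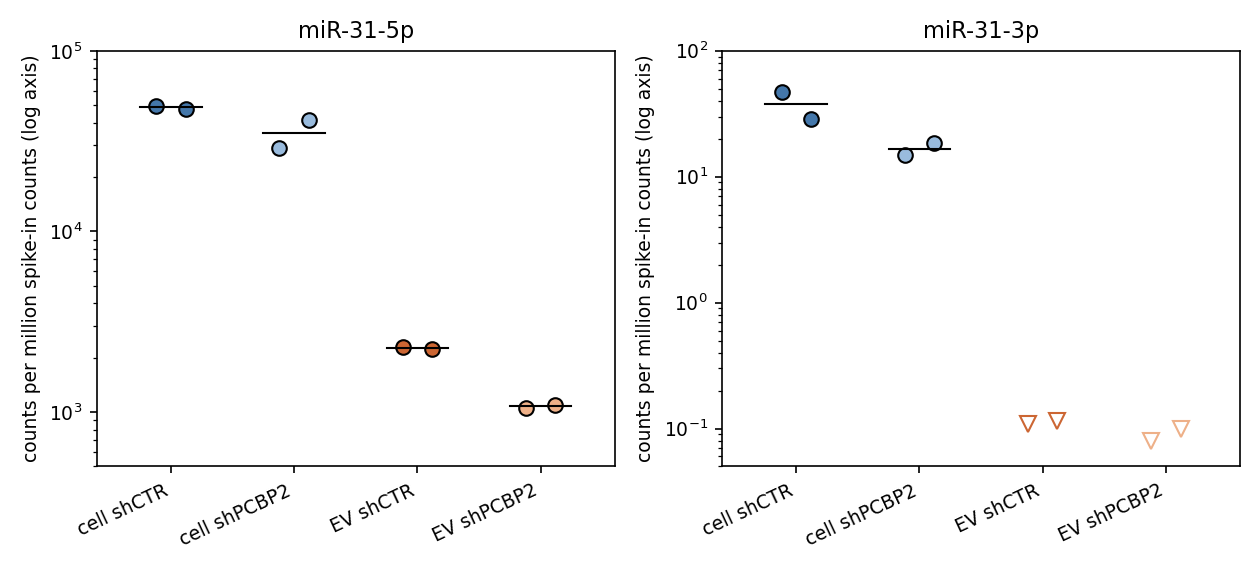
Level of miR-31-5p (left) and miR-31-3p (right) in counts per 1000000 spike-in counts, on log axes, for the 2 libraries (points) of each condition, with bars at their mean. Open triangles mark the limit that 0 reads allow (3 counts) for miR-31-3p in EVs, and miR-31-5p runs from 49738 in cell shCTR to 1052 in EV shPCBP2.

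Relative to the spike-in, the level of miR-31-5p was 48550 ± 1680 units in control cells and 35082 ± 8811 in silenced cells (SD, n = 2 each), and 2258 ± 36.8 and 1076 ± 34.9 in their EVs. Both shPCBP2 libraries lay below both shCTR libraries in cells and in EVs, as for 66.7% and 42.2% of the tested miRNAs. The cell shCTR libraries lay at 49738 and 47363 and the cell shPCBP2 libraries at 28851 and 41312, so that the spread within cell shPCBP2 was nearly as wide as its distance from the control. The EV libraries were much closer to each other, at 2284 and 2231 in shCTR and at 1052 and 1101 in shPCBP2. Between replicates, miR-31-5p differed by 0.07, 0.52, 0.03 and 0.07 on the log2 scale in these conditions, in the order given, where the median tested miRNA differed by 0.19, 0.47, 0.53 and 0.66.

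Adjusted p-values below come from quasi-likelihood F-tests in edgeR, corrected by Benjamini-Hochberg over every miRNA tested. The filter (a read in at least 2 libraries of each compartment) left 180 miRNAs, among them miR-31-5p but not miR-31-3p. In EVs, miR-31-5p was lower in shPCBP2 than in shCTR by a log2 change of -1.07 (standard error 0.19), or 2.10-fold (edgeR adjusted p = 0.0320). This comparison called 13 miRNAs (7.22% of those tested), 10 (5.56%) lower and 3 (1.67%) higher. Both shPCBP2 libraries lay below both shCTR libraries for miR-31-5p, a pattern shared by 42.2% of the tested miRNAs. The median tested miRNA had a log2 change of -0.54, so that miR-31-5p lay 0.53 below this median. Scalings without the spike-in gave a smaller change of miR-31-5p, -0.79 with TMM factors, -0.68 with median-of-ratios and -0.60 with the total mouse count, with medians of -0.23, -0.11 and -0.02. The distance to the median was -0.56, -0.57 and -0.57, in that order, and the adjusted p stayed under 0.05 with each (edgeR).

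The EV change can be divided into a change of the whole library and a change of the share of miR-31-5p within it. All mouse counts together were 21263 and 24764 units in EV shCTR against 16475 and 16544 in EV shPCBP2, a 1.39-fold difference. The study quantified EVs per cell and reports no effect of the silencing on EV production, a measurement that is not analysed here. The read counts alone do not separate the number of vesicles from the miRNA in each. The share of miR-31-5p was 9.22% and 10.5% of the mouse counts in EV shCTR against 6.38% and 6.66% in EV shPCBP2, a 1.51-fold difference. The summed share of the erythroid markers moved the other way, with 5.10% and 5.48% in EV shCTR against 6.10% and 6.11% in EV shPCBP2, and their part in the result was not tested. The lower share in EV shPCBP2 was a pattern found for 18.3% of the tested miRNAs, counted as both shPCBP2 libraries below both shCTR libraries.

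The call in EVs was lost without any 1 of 6 libraries, in fits that assume a lone library to vary like the other groups, and it held without either cell shPCBP2 library. With the log2 change staying between -1.10 and -1.04, the adjusted p rose to 0.103 without cell shCTR replicate 1, 0.103 without cell shCTR replicate 2, 0.0917 and 0.0968 without EV shCTR replicates 1 and 2, and 0.0966 and 0.0863 without EV shPCBP2 replicates 1 and 2 (edgeR). It was 0.0646 (edgeR) with no filter on reads.

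**Figure D2:**
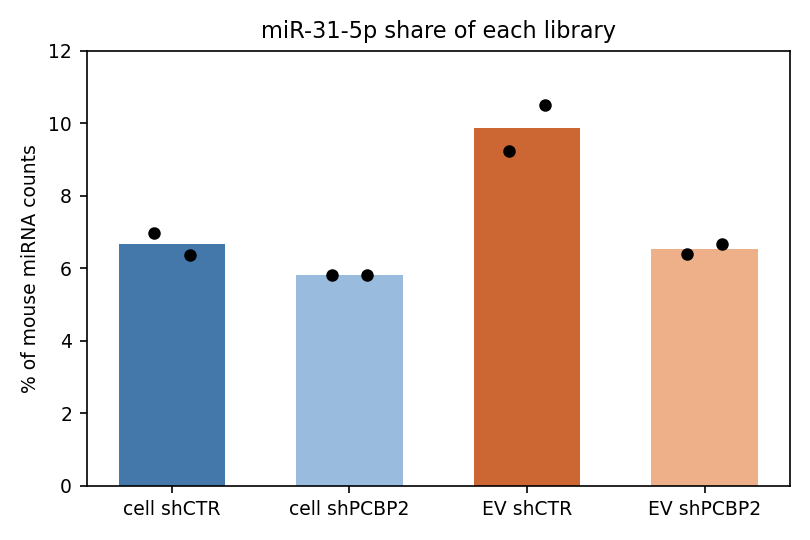
Share of miR-31-5p in the mouse miRNA counts of each library (points, in %), with bars at the mean of the 2 libraries of a condition. The EV shCTR libraries stand highest, at 9.22% and 10.5%, and the EV shPCBP2 libraries, at 6.38% and 6.66%, fall within the range of the cell shCTR libraries.

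In cells, the level of miR-31-5p changed by -0.47 on the log2 scale in shPCBP2 (standard error 0.19), and was not called (edgeR adjusted p = 0.342). edgeR called no miRNA in this comparison (0% of those tested), while 25 (13.9%), miR-31-5p among them, had an unadjusted p under 0.05 and were lower. DESeq2 called 18 miRNAs and limma voom 16, without miR-31-5p. The median change of all tested miRNAs was -0.49, so that miR-31-5p was within 0.02 of the median cell miRNA. Both shPCBP2 libraries lay below both shCTR libraries for miR-31-5p as for 66.7% of the tested miRNAs. The size of the cell change depended on the shPCBP2 replicate, since it was -0.23 without cell shPCBP2 replicate 1 and -0.75 without replicate 2. Scaled by TMM factors, its sign changed (0.0090). As a share of the mouse counts, miR-31-5p was at 6.96% and 6.37% in cell shCTR, and at 5.82% and 5.83% in cell shPCBP2, a 1.14-fold difference with no overlap, as for 52.2% of the tested miRNAs.

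The EV/cell ratio sets these changes against each other and asks whether the loading of a miRNA differs when PCBP2 is silenced. For miR-31-5p the ratio changed by -0.60 on the log2 scale in shPCBP2 (standard error 0.26, 95% interval -1.24 to 0.05), to 0.660 of that in shCTR. It was not called (edgeR adjusted p = 0.585), where the test called 4 miRNAs (2.22%), 3 lower (1.67%) and 1 higher (0.556%), and with the total mouse count 2 lower and 4 higher. The change was negative with every scaling, filter, tool and left-out library that was tried, from -0.84 to -0.32, and the median tested miRNA changed by -0.08. With TMM factors it was -0.80 and passed (edgeR adjusted p = 0.0406), in a fit that called 13 miRNAs. It passed as well without cell shPCBP2 replicate 1, at -0.84 (edgeR adjusted p = 0.0484).

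**Figure D3:**
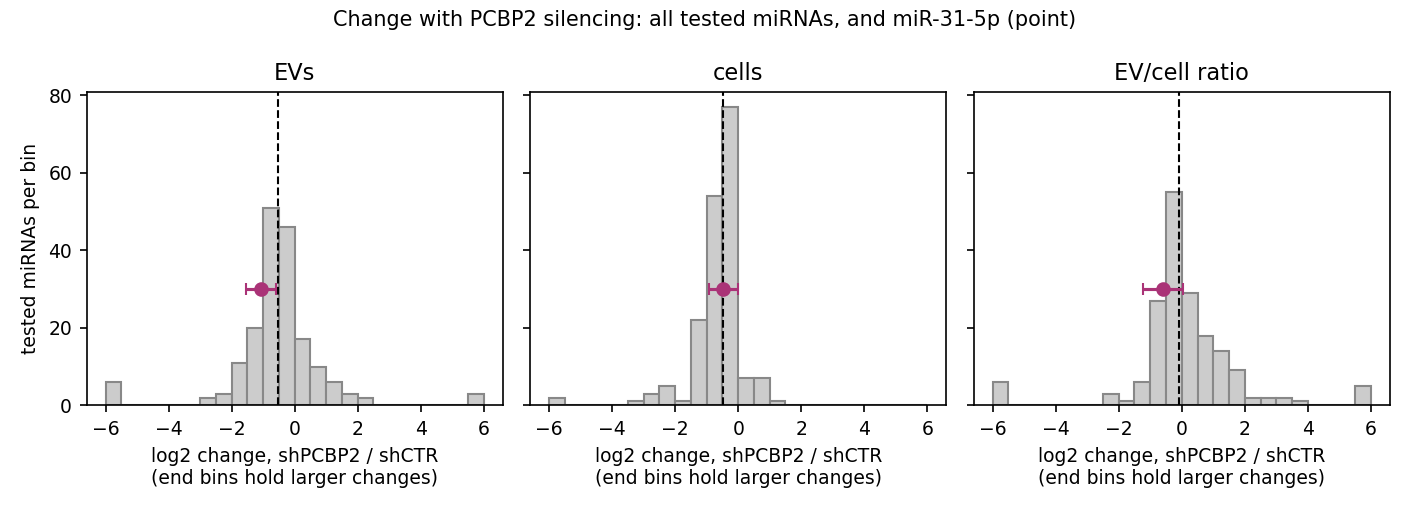
Log2 change in shPCBP2 against shCTR of the 180 tested miRNAs (grey bars, number per bin of the log2 change) in EVs, in cells and for the EV/cell ratio, relative to the spike-in. Dashed lines mark the medians (-0.54, -0.49 and -0.08), and the point with its 95% interval is miR-31-5p, at -1.07, -0.47 and -0.60. The height of the point has no meaning.

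The level of miR-31-5p in EVs relative to cells was compared within each condition. Per spike-in count, it was 21.5-fold lower in EVs than in cells in shCTR (log2 ratio -4.43, standard error 0.22, edgeR adjusted p = 7.87e-06) and 32.6-fold lower in shPCBP2 (log2 ratio -5.03, standard error 0.22, edgeR adjusted p = 5.83e-06). Most miRNAs were lower in EVs on this scale, 59.4% of those tested in shCTR and 60% in shPCBP2, and the median log2 ratios were -4.93 and -4.90. These ratios include how much material and spike-in entered each preparation. Relative to the median tested miRNA, miR-31-5p was higher in EVs than in cells by 0.51 in shCTR and lower by 0.13 in shPCBP2.

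Scaled by the total mouse miRNA count, the log2 ratio in shCTR was 0.56 and the call was reversed (edgeR adjusted p = 0.00240). In shPCBP2 it was 0.16 and did not pass (edgeR adjusted p = 0.175). With this scaling 43 miRNAs were higher and 32 lower in EVs in shCTR, against 12 higher and 107 lower with the spike-in, and in shPCBP2 54 were higher and 35 lower, against 14 and 108. Over both conditions, the mean share of miR-31-5p was 8.19% ± 2.00 (SD, n = 4) of the mouse counts in EVs and 6.24% ± 0.54 (SD, n = 4) in cells. These SDs and the test below pool both shRNAs, so that they include the difference between shRNAs. Within EV shCTR and EV shPCBP2 the SD was 0.90 and 0.19. The difference of 1.94 percentage points did not pass the test (p = 0.114, exact two-sided permutation test, where the smallest possible p is 0.0286), and the EV shPCBP2 libraries overlapped the cell libraries.

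From these reads, miR-31-3p could be compared between shRNAs in cells only. Its level was 46.9 and 28.6 units in cell shCTR, and 14.8 and 18.4 in cell shPCBP2. Both shPCBP2 libraries lay below both shCTR libraries, a pattern shared by 40.4% of the 574 miRNAs with reads in at least 2 cell libraries. In a fit of the 4 cell libraries, its log2 change was -1.18 (standard error 0.37), or 2.27-fold lower in shPCBP2, and was not called (edgeR adjusted p = 0.223). The test called 4 of these miRNAs (0.697%), all of them lower, and with TMM factors it called 13 higher and 16 lower. The median change in this fit was -0.48, and that of miR-31-5p was -0.47 (standard error 0.40). The change of miR-31-3p was -0.78 without cell shCTR replicate 1, the library with the most reads of it. Without cell shPCBP2 replicate 2 it was -1.35. Scalings without the spike-in gave a smaller change, -0.70 with TMM factors, -0.68 with median-of-ratios and -0.90 with the total mouse count. None of these was called (edgeR adjusted p = 0.339, 0.338 and 0.194). With no filter on reads the change passed, at -1.18 (edgeR adjusted p = 0.0462), but not with all 8 libraries in such a fit (edgeR adjusted p = 0.927).

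The share of miR-31-3p among the reads of both arms does not depend on the scaling of the libraries. It was 0.0941% (95% exact binomial interval 0.0878% to 0.101%) and 0.0603% (0.0549% to 0.0662%) in cell shCTR. In cell shPCBP2 it was 0.0512% (0.0452% to 0.0578%) and 0.0445% (0.0398% to 0.0496%). The shPCBP2 libraries were both lower, as for 23.5% of the 136 arm pairs with reads in every cell library, while the interval of shPCBP2 replicate 1 overlapped that of shCTR replicate 2. With 2 libraries on each side the smallest p of an exact permutation test is 0.333, so that no test was made.

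In EVs, 0 of 63406, 58092, 39491 and 33483 reads of the hairpin were from the 3p arm, which allows a share of up to 0.00473%, 0.00516%, 0.00760% and 0.00896%. The mean share was 0.0626% ± 0.0220 (SD, n = 4, both shRNAs) in cells. The difference to EVs gave the smallest p that 4 against 4 libraries allow (p = 0.0286, exact two-sided permutation test). This p follows from the 0 reads in EVs, as it would for any arm read in every cell library and in no EV library. The arm with fewer reads in cells had no EV read for 102 of 143 hairpins (71.3%), as described below. This count includes hairpins with no EV read of either arm. Among 14 other hairpins whose major arm was well read in EVs, the arm with fewer reads had no EV read for 6. Relative to the spike-in, and with 3 counts in each EV library, miR-31-3p was at least 338-fold lower in EVs than in cells in shCTR and at least 186-fold lower in shPCBP2. As a share of the mouse counts, the same floor gives much smaller bounds, at least 10.6-fold lower in shCTR and at least 5.16-fold lower in shPCBP2. These limits cover counting error only, as no molecular identifiers are described for these reads and PCR copies are not independent molecules.

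Low counts were rare in the EV libraries. With the arm share of the cells, the EV libraries would hold 49.0 and 44.9 reads of miR-31-3p in shCTR, and 18.9 and 16.0 in shPCBP2. So few reads or fewer, but more than 0, were counted for only 12 of 202, 9 of 187, 6 of 189 and 3 of 183 miRNAs with reads in these libraries, whose median counts lay between 354 and 464. miRNAs with counts in this range were thus seldom recorded in EVs, and whether the 0 of miR-31-3p goes beyond this was not tested. An EV change of miR-31-3p with PCBP2 silencing could therefore not be estimated. A fall or a small rise could not be seen at this depth, and no rise to counts common in these libraries was seen.

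Of 46 mature miRNAs whose mean cell count was within 2-fold of the 469 of miR-31-3p, 16 (34.8%) had no EV read. Among 143 hairpins with both arms read in cells, the arm with fewer reads in cells (the minor arm) had no EV read for 102 (71.3%). Its median share in cells was 5.22% over the 143. Some of the 102 had no EV read of the other arm either, and some had few reads of the minor arm in cells. Only 9 hairpins had a smaller share than miR-31, of which 8 had no EV read of that arm. The exception was miR-23a, named after its values were seen, with reads of that arm in 2 of the 4 EV libraries. For 14 other hairpins the major arm had a mean EV count of at least 4862, against 48618 for miR-31-5p. The minor arm was read in at least 1 EV library for 8 of them, with shares in cells from 0.0304% to 3.19%. It was read in none for 6, with shares from 0.0137% to 0.877%. The 8 were read in 1 to 4 EV libraries, mostly in 1 or 2.

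**Figure D4:**
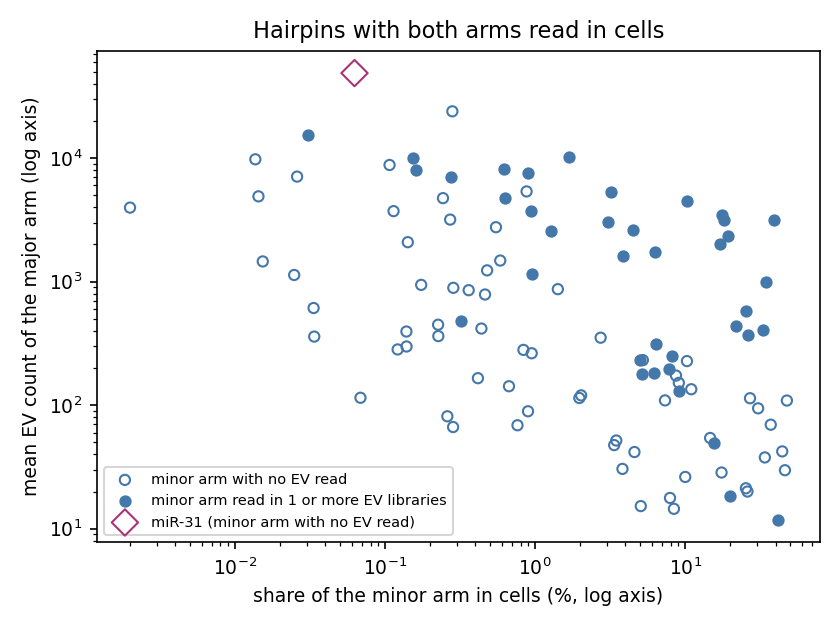
Hairpins with both arms read in cells and an EV read of the major arm, by the share of the minor arm in cells (%) and the mean EV count of the major arm, on log axes. Filled points had a read of the minor arm in at least 1 EV library and open points had none, and miR-31 (diamond) has the highest EV count of the major arm, 48618, and a cell share of 0.0626%.

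The miRNAs that the study set beside miR-31-3p as carriers of a single motif were read in EVs. miR-195a-5p, a member of the miR-15/16 family with the CELL motif, had 48, 24, 16 and 50 counts in the cell libraries, and 106 and 243 in EV shCTR against 100 and 115 in EV shPCBP2. miR-421-3p, also with the CELL motif, had 2235, 2886, 1699 and 2285 counts in cells, and 221 and 286 in EV shCTR against 528 and 94 in EV shPCBP2. miR-365-2-5p, with the hEXO motif, had 184, 153, 33 and 96 counts in cells, and 209 and 349 in EV shCTR against 0 and 167 in EV shPCBP2. Counts of the cell libraries are given in the order shCTR replicates 1 and 2, then shPCBP2 replicates 1 and 2. The EV/cell ratio changed by -0.84 (standard error 1.45), 0.32 (1.16) and -0.47 (2.96) on the log2 scale for miR-195a-5p, miR-421-3p and miR-365-2-5p, less than the standard error for each (edgeR adjusted p = 0.992 for all 3). These errors allow changes in either direction, and for miR-31-3p the ratio could not be tested.

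By mean log2 level over the 8 libraries, miR-31-5p ranked 2nd of the tested miRNAs. miR-16-5p, a guide strand known for restraining the cell cycle, was next above, by 0.62 on the log2 scale. Next below were let-7g-5p, of the let-7 family that restrains growth genes, by 0.61, miR-103-3p, known from insulin signalling, by 0.74, and miR-24-3p, of the miR-23/27/24 clusters, by 0.77. The levels of miR-31-5p overlapped those of miR-16-5p in cells, where miR-16-5p ranged from 46543 to 70042 units, and in EVs, where it ranged from 2056 to 3161. In EVs none of these neighbours was called with PCBP2 silencing, with log2 changes of -0.37 for miR-16-5p, -0.27 for let-7g-5p, -0.34 for miR-103-3p and -0.11 for miR-24-3p and edgeR adjusted p between 0.404 and 0.822. Whether these changes differ from that of miR-31-5p was not tested.

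The miRNAs whose pattern over the 8 libraries was closest to that of miR-31-5p were found among 112 with at least 10 counts in every library, by the root mean square difference of log2 levels after centring each on its mean. They were miR-151-5p (0.19), miR-152-3p (0.21), miR-652-3p (0.23), miR-17-5p (0.26) and miR-23a-3p (0.27), where the median of all compared was 0.82. The difference between EVs and cells makes up most of each profile. In EVs the log2 change in shPCBP2 was -0.64 for miR-151-5p, -1.21 for miR-152-3p, -0.67 for miR-652-3p, -0.63 for miR-17-5p and -0.37 for miR-23a-3p, and edgeR called none of them (adjusted p between 0.172 and 0.442). miR-152-3p, which has the largest of these changes, had 693 and 573 counts in EV shCTR against 303 and 372 in EV shPCBP2. For miR-31-3p, the closest cell levels among 130 miRNAs that were also without EV reads (at most 3 counts) were those of miR-700-3p (0.41), miR-200b-5p (0.41) and miR-187-3p (0.57). miR-200b-5p, the passenger arm of an epithelial miRNA, had 508 and 445 counts in cell shCTR and 247 and 433 in cell shPCBP2.

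**Figure D5:**
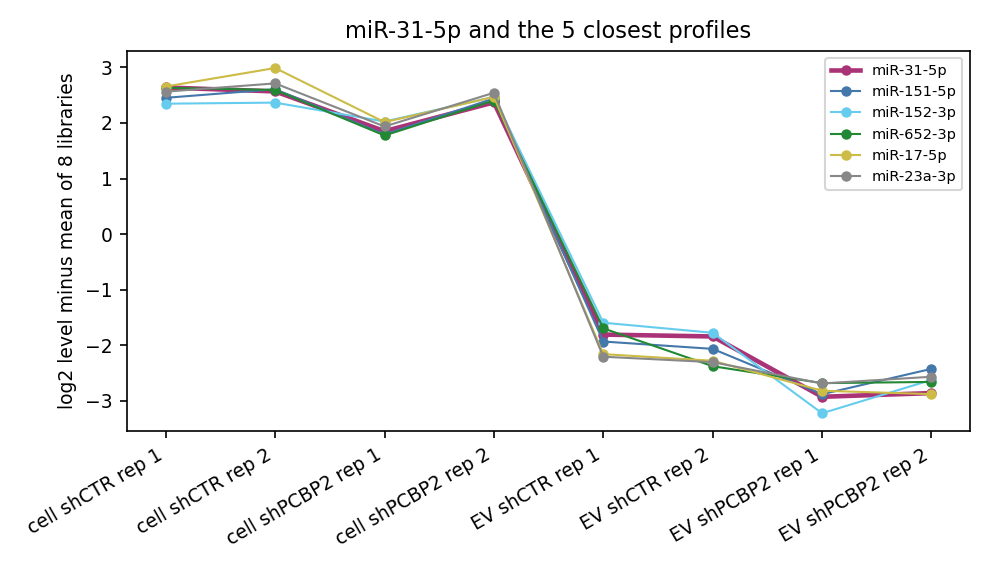
Log2 level relative to the spike-in, minus its mean over the 8 libraries, of miR-31-5p (thick line) and the 5 miRNAs with the closest profiles. The lines only join the values of a miRNA, and all of the profiles drop from cells to EVs, with root mean square differences from miR-31-5p of 0.19 to 0.27.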

How the data were processed

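Small RNA was measured in cells and EVs of shCTR and shPCBP2 3A cells, with 2 biological replicates in each of 4 conditions. The authors prepared small RNA libraries with the spike-in added, aligned trimmed forward reads to miRBase hairpins with mirPRo and NovoAlign (the latter also in the submitters' processing notes), and deposited raw counts of reads per mature miRNA, without normalization. The genome build is not given in the sources used here, and coordinates and sequences come from RefSeq and GENCODE on GRCm38. The table has 1980 rows, 1978 of mouse miRNAs and 2 of the spike-in, and the largest counts are given to 6 significant digits. Samples were grouped by their titles. The titles and descriptions number the shPCBP2 replicates differently, and the title numbers are used.

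The members and lists were chosen with earlier results of these data known. Counts were tested with edgeR 4.0.16 (quasi-likelihood, library sizes proportional to the spike-in, prior count 0.125) in R 4.3.3, with terms for compartment, shRNA and their interaction over all 8 libraries, on miRNAs that had 1 read or more in 2 libraries or more of each compartment. miR-31-3p was tested in the 4 cell libraries, on miRNAs with reads in at least 2 of them. Standard errors were derived from F and are approximate. The threshold was a Benjamini-Hochberg adjusted p of 0.05, and p-values of these fits measure the spread between these replicates. Alternatives were TMM, median-of-ratios or total-count scaling, other filters, DESeq2 1.42.0, limma voom 3.58.1, replicate blocks, fewer libraries in the fit, and each library left out. Shares were compared by exact permutation of EV and cell libraries, with both shRNAs pooled, in scipy 1.17.1. The hairpin was folded with RNAfold 2.7.2. This edgeR code was first tested on simulated counts. Beside the arms, the miRNAs next to miR-31-5p in mean level (up to 3 on each side), the 5 and 3 with the closest profiles, and the single-motif miRNAs of the study are named, and miR-23a was chosen after its values were seen. The libraries hold small RNA, so the level of PCBP2 itself was not checked.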

Additional observations from a re-analysis of the deposited data

How the results depend on the processing

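The change of miR-31-5p in EVs kept its direction in all 17 alternatives and had an adjusted p under 0.05 in 9. It did not pass with no filter (-1.07) or with a replicate block (-1.07, adjusted p = 0.0723, edgeR). With a library left out it ranged from -1.10 to -1.04, and most but not all of these fits lost the call, as given above. In cells its sign changed with TMM factors (0.0090). The change of its EV/cell ratio was negative in all 17, passed with TMM factors (-0.80), and ranged from -0.84 to -0.32 with a library left out. The EV against cell difference in shCTR was reversed by TMM (0.34), median-of-ratios (0.35) and total-count scaling (0.56), and in shPCBP2 it was reversed with the total count (0.16) and no longer passed by median-of-ratios (-0.25). miR-31-3p in cells passed with no filter (-1.18) and ranged from -1.50 to -0.78 with a library left out. It was smaller and not called with TMM (-0.70), median-of-ratios (-0.68) and total-count scaling (-0.90). The arm share ranged from -0.0686 to -0.0520 percentage points, where 3 against 4 libraries cannot give a p under 0.0571.

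Counts of called miRNAs moved by more than 1.5 times. For the EV/cell ratio, 4 calls became 13 by TMM, 2 by median-of-ratios, 14 with DESeq2, 1 with the replicate block and 0 with limma voom or at least 10 counts in every library. In EVs, 13 became 7 with no filter or with at least 10 counts, 27 with DESeq2, 4 with limma voom, 2 with the replicate block and 1 with the EV libraries alone. In cells, 0 became 39 with the cell libraries alone, 18 with DESeq2 and 16 with limma voom. Over the 574 miRNAs of the cell libraries, 4 became 16 with limma voom, 37 with DESeq2 and 5 to 120 with a library left out. Whether replicate numbers pair the samples is not known. By title number, the correlation of replicate differences between conditions ranged from -0.12 to 0.21 over 113 miRNAs, which cannot decide it. With a block by the numbers of the descriptions the ratio change of miR-31-5p was -0.80 (adjusted p = 0.384, edgeR). For miR-31-5p, whether the ratio or the EV against cell difference was called did not change with either block. That block cannot be combined with a contrast between shRNAs within a compartment.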
